A study of Mus musculus with 7 samples.

Results

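The Dickkopf, SFRP and WIF genes encode secreted proteins that act on Wnt signalling outside the cell, and 8 of the 24421 genes counted in mouse left atria were taken as this family by name: Dkk2, Dkk3, Sfrp1, Sfrp2, Sfrp4, Sfrp5, Frzb and Wif1. The family was chosen because Dkk3 was known to be much lower with FOG2 overexpression, so the differences of the members between the groups are given as a description, with no p-value and with nothing read from them. RNA sequencing covered 4 libraries labelled FOG2 overexpression (FOG2_OE) and 3 labelled wild type (WT), all of left atria from adult CD1 mice, an outbred strain. FOG2 is the product of Zfpm2, a cofactor that binds GATA transcription factors. Animals of both groups, called DTG and NTG in the protocol, had been kept without doxycycline for 1 week, and the promoter that drives the transgene is not given in the sources used here. Whether the libraries come from separate animals is not stated, so p-values reflect library-to-library spread alone, and part of it may be technical.

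Wnt ligands bind Frizzled receptors together with the coreceptors Lrp5 and Lrp6, which spares beta-catenin from breakdown and lets it act with TCF and LEF factors on target genes. SFRP proteins carry a cysteine-rich domain like that of the Frizzled receptors and bind Wnt ligands, and Wif1 binds Wnt ligands through a domain of its own. Dickkopf proteins such as Dkk2 bind Lrp5 and Lrp6, while Dkk3 is the divergent member of that family and its effect on Wnt signalling differs between cell types.

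Levels are given as CPM, counts scaled to library totals with TMM factors, and errors of log2 fold changes are SE. Zfpm2 measured 140.1, 222, 262 and 246 CPM in overexpression and 31.7, 30.9 and 29.4 CPM in wild type (log2 fold change 2.82 ± 0.22), and replicate 1 was the lowest overexpression library. Reads counted to genes numbered 5562520 to 8655655 per library. Overexpression replicate 1 stood apart: its log2 CPM correlated with the other overexpression libraries at r = 0.947 to 0.949 across genes, where those 3 correlated with each other at 0.978 to 0.983. Overexpression replicate 1 and WT replicate 2 held Y-linked transcripts (2570 and 1858 reads of Ddx3y, at most 2 in the other libraries), so sex differed within both groups.

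Dkk3 was the member whose groups lay apart. It stood at 52.6, 68.3, 53.4 and 57.8 CPM in the 4 overexpression libraries, against 911, 927 and 979 CPM in the 3 wild-type libraries. The highest overexpression library lay far below the lowest wild-type library, and replicate 1 was not set apart from the other overexpression libraries for this gene. The means were 58.05 ± 7.21 CPM (SD, n = 4) in overexpression and 939 ± 35.8 CPM (SD, n = 3) in wild type, so that overexpression atria held 6.18% of the wild-type level. The log2 fold change was -4.02 ± 0.13 (SE). Of 13295 genes that passed the filter on low counts, 10 had a more negative log2 fold change, and 3 of the 1879 genes with a mean of at least 100 CPM in wild type did.

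Dkk3 lies on the minus strand of mouse chromosome 7, from 112116017 to 112159057 in mm10, and the GENCODE annotation places no other gene over it. Of the 3 nearest protein-coding genes of the table on either side, picked by position after the data were seen, 1 of 6 passed the test. Over all tested genes, 4.84% were called in either direction. Usp47, a ubiquitin protease whose 3′ end lies 4.36 kb from that of Dkk3, had 258 ± 14.8 CPM in overexpression and 291 ± 9.64 CPM in wild type with groups that did not overlap (log2 fold change -0.18 ± 0.09, edgeR adjusted p = 0.3396). Mical2, on the other side at 66.8 kb, had overlapping groups and a log2 fold change of 0.13 ± 0.18 (edgeR adjusted p = 0.72999). Parva, a focal adhesion protein, had 0.28 ± 0.11 (edgeR adjusted p = 0.216). Its groups did not overlap, with 110 to 141 CPM in overexpression and 103 to 106 CPM in wild type. Galnt18, a glycosyltransferase 336 kb away, rose to 66.5 ± 24.5 CPM in overexpression, against 18.97 ± 1.54 CPM in wild type (1.81 ± 0.28, edgeR adjusted p = 0.00908). Its groups did not overlap either. Tead1 (-0.34 ± 0.17, edgeR adjusted p = 0.334) and Eif4g2 (-0.04 ± 0.11, edgeR adjusted p = 0.864) had overlapping groups. Over all tested genes, 19.8% had groups that did not overlap. The gene body was counted as a whole, so the share of each exon or transcript was not analysed here.

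**Figure D1:**
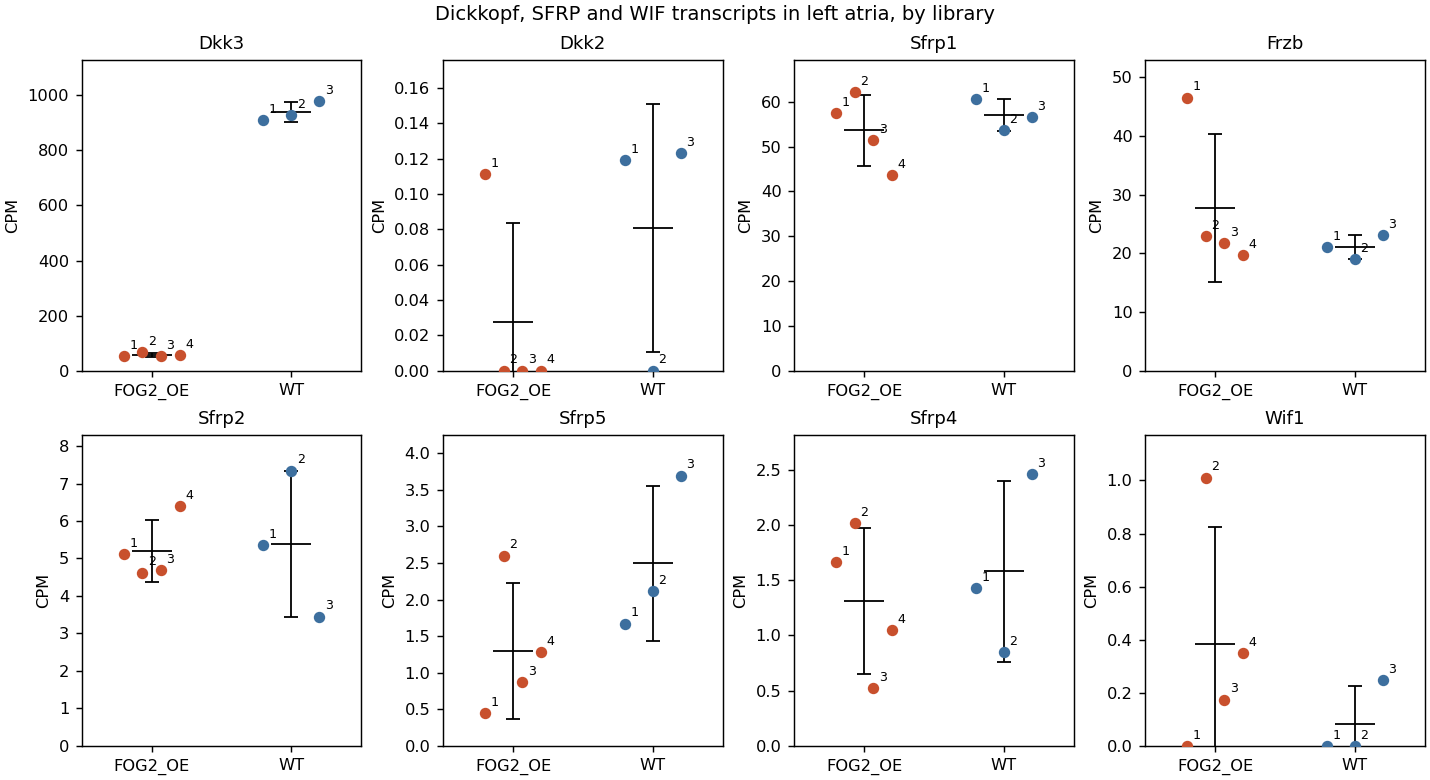
CPM of each member in the 4 FOG2_OE and 3 WT libraries (points, with replicate numbers); the black bars give the mean and the SD, cut at 0 where the SD passes it, and each panel has its own linear axis from 0. Dkk3 is the panel in which the groups do not overlap, and the Frzb panel shows overexpression replicate 1 alone at 46.5 CPM.

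Markers of atrial muscle cells were also lower with overexpression. Of 15 tested atrial cardiomyocyte markers, 6 fell and 9 did not reach the threshold (adjusted p under 0.05), where 3.29% of all tested genes were called lower. Their median log2 fold change was -0.51, against 0.02 over all tested genes. Their summed level was 52395 to 70764 CPM in overexpression and 86153 to 99246 CPM in wild type, and no marker of the list was at 0 in every library. Myh6, the most abundant of them, had 20870.0 ± 4146 CPM in overexpression and 27615 ± 3082 CPM in wild type (-0.40 ± 0.19, adjusted p = 0.282). Of 30 sarcomere genes 9 fell, and their sum was 97984 to 135539 CPM in overexpression and 146986 to 174835 CPM in wild type. Ttn, the most abundant of them, had 56102 ± 11097 CPM in overexpression and 74321 ± 8579 CPM in wild type. Its log2 fold change was -0.41 ± 0.19 (edgeR adjusted p = 0.291). Of 14 smooth muscle and pericyte markers 3 rose, where 1.55% of all tested genes were called higher. Without overexpression replicate 1, 7 rose, where 493 of 13191 tested genes were called higher. DESeq2 called 6 of the 14 higher (460 of all genes) and limma-voom 2 (184 of all genes). The sum of the 14 markers was 2055 to 2615 CPM in overexpression and 1195 to 1474 CPM in wild type. Des, the most abundant of them, did not follow the sum, with 751 ± 135 CPM in overexpression and 724 ± 112 CPM in wild type. Its log2 fold change was 0.05 ± 0.16 (edgeR adjusted p = 0.893). When libraries were scaled to the sarcomere genes, whose fall this takes out by construction, Dkk3 had a log2 fold change of -3.55, with the median of all genes moved to 0.48. This scaling moves all genes by about the same amount. It therefore cannot tell the part of the muscle markers in the Dkk3 level, which was not tested. In whole atria, fewer cells of a type and less RNA per cell cannot be told apart.

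Among the 6 members that passed the filter, 1 was called lower and 5 were not called at an adjusted p under 0.05, where 3.29% of all tested genes were called lower, 1.55% higher and 4.84% in either direction. The groups did not overlap for 1 of the 6, against 19.8% of all tested genes (8.99% higher, 10.8% lower). Dkk3 is that member in both counts, and it is the gene that chose the family, so nothing is read from these shares. The median log2 fold change of the 6 was -0.17, with 5 values below 0 and 1 above. The other 2 members, Dkk2 and Wif1, held too few reads to pass.

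Per length of exon, Dkk3 led the family by a wide margin in wild-type atria and narrowly in overexpression atria. Its level was 17.3 ± 2.15 CPM per kb of exon in overexpression (SD, n = 4) and 279.6 ± 10.7 CPM per kb in wild type (SD, n = 3). Sfrp1, the next member, stood at 12.3 ± 1.82 CPM per kb in overexpression and 13.04 ± 0.807 CPM per kb in wild type. Dkk3 thus exceeded Sfrp1 by 1.19, 1.43, 1.35 and 1.73 times in the overexpression libraries, against 19.5, 22.5 and 22.5 times in the wild-type libraries. Dkk3 made up 33.9% to 46.1% of the summed CPM per kb of the 8 genes in overexpression libraries, and 91.8% to 92.3% in wild-type libraries.

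The sum of the other 7 genes differed between the groups by less than the spread of the overexpression libraries. It was 24.4 ± 4.74 CPM per kb in overexpression and 23.8 ± 0.793 CPM per kb in wild type, and its highest value, 30.5 CPM per kb, came from overexpression replicate 1. Without that library the overexpression mean was 22.4 ± 2.95 CPM per kb (SD, n = 3). Among tested genes ordered by CPM per kb, Dkk3 stood at ranks 1865 to 2623 in overexpression libraries and at ranks 100 to 107 in wild-type libraries. Sfrp1 held ranks 2799 to 3997 in overexpression and 2862 to 3271 in wild type.

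**Figure D2:**
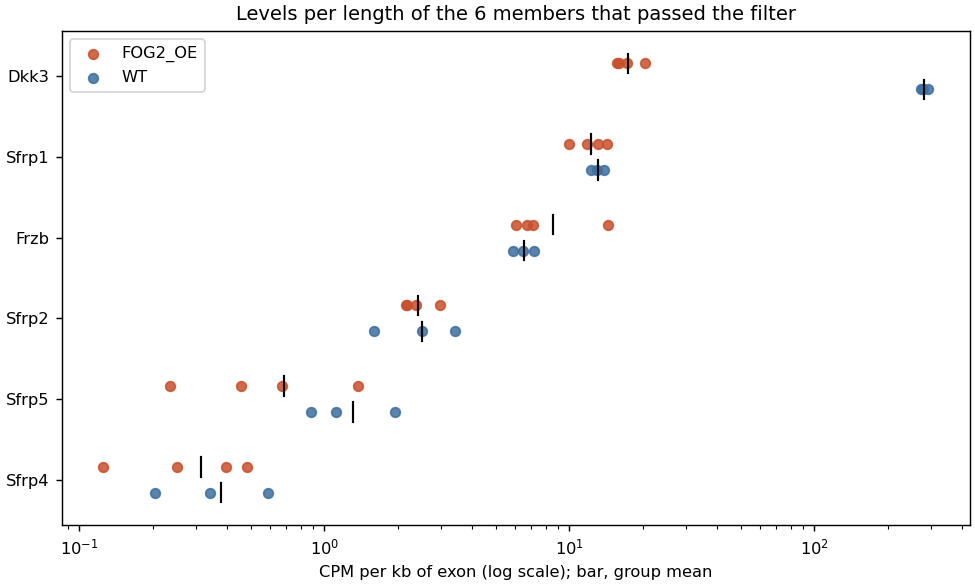
CPM per kb of exon on a log axis for the 6 members that passed the filter; points are libraries (FOG2_OE above WT in each row) and the black bar is the group mean. The order Dkk3, Sfrp1, Frzb, Sfrp2, Sfrp5, Sfrp4 by mean holds in both groups, with the Dkk3 rows about 16.2 times apart.

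Below Dkk3 the order by mean CPM per kb was the same in both groups: Sfrp1, Frzb, Sfrp2, Sfrp5 and Sfrp4, followed by the sparse Wif1 and Dkk2. Some neighbours in that order did not differ beyond the spread of libraries. In overexpression libraries Sfrp1 (9.98 to 14.2 CPM per kb) overlapped Frzb (6.07 to 14.4 CPM per kb), through replicate 1. Sfrp5 (0.234 to 1.37 CPM per kb) overlapped Sfrp4 (0.125 to 0.484 CPM per kb) there. In wild-type libraries Sfrp2 (1.602 to 3.41 CPM per kb) overlapped Sfrp5 (0.879 to 1.94 CPM per kb), while the ranges of Sfrp1, Frzb and Sfrp2 lay apart.

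Sfrp1, which binds Wnt ligands and is known in fibroblasts and other stromal cells, had nearly equal levels in both groups. It measured 57.4, 62.1, 51.5 and 43.6 CPM in overexpression and 60.7, 53.7 and 56.7 CPM in wild type. The overexpression libraries spread around the wild-type range on both sides. The log2 fold change was -0.09 ± 0.13 (SE), the most precise of the SFRP genes.

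Sfrp2, a matrix-associated SFRP of fibroblasts, measured 5.11, 4.62, 4.697 and 6.3997 CPM in overexpression and 5.37, 7.34 and 3.45 CPM in wild type. The overexpression libraries all fell within the wild-type range. Its log2 fold change was -0.04 ± 0.28, and an antisense gene on the other strand, Gm26771, overlaps its exons, so reads of both cannot be told apart without a stated strand setting. Summed fibroblast markers stood at 17438 to 21105 CPM in overexpression and 12701 to 17768 CPM in wild type. Of 15 tested fibroblast markers edgeR called 0 and DESeq2 called 2, both higher. In edgeR 9 of the 15 had an unadjusted p under 0.05, all higher, where 2551 of all 13295 tested genes had one in either direction. The median log2 fold change of these markers was 0.45, against 0.02 over all tested genes. Gsn, the most abundant of them, had 5104 ± 1981 CPM in overexpression and 4952 ± 937 CPM in wild type. It stood at 2179 CPM in overexpression replicate 1 and at 5586 to 6344 CPM in the other overexpression libraries. Its log2 fold change was 0.04 ± 0.34 (edgeR adjusted p = 0.959). The part of the fibroblast markers in the SFRP levels was not tested.

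Sfrp4, a further SFRP of stromal cells, was sparse, with 41 reads over the 4 overexpression libraries and 38 over the 3 wild-type libraries. It measured 1.67, 2.02, 0.522 and 1.05 CPM in overexpression and 1.43, 0.847 and 2.46 CPM in wild type, with overlapping groups. The log2 fold change of -0.25 ± 0.50 has an SE larger than the value itself, and its direction was not stable: it was 0.21 ± 0.57 without WT replicate 3 and -0.54 ± 0.53 without WT replicate 2.

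Frzb, the SFRP gene also named Sfrp3, was high in a single overexpression library. It measured 46.5, 22.96, 21.7 and 19.7 CPM in overexpression and 20.99, 19.1 and 23.2 CPM in wild type. Replicates 2 to 4 lay within the wild-type range, and replicate 1 lay far above it. WT replicate 2, the other library with Y-linked transcripts, was the lowest wild-type library. Only replicate 1 held such transcripts among the overexpression libraries, so its sex cannot be told apart there from its other traits. The log2 fold change was 0.40 ± 0.30 with replicate 1 and 0.02 without it.

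Activated fibroblast markers were high in the same library. Summed over the 13 genes of the list, they stood at 1887, 759.6, 748 and 648 CPM in overexpression and 974, 898 and 838 CPM in wild type, and no gene of the list was at 0 in every library. Epicardial markers summed to 1216 CPM in replicate 1, to 687 to 931 CPM in the other overexpression libraries and to 688 to 774 CPM in wild type. Gpm6a, the most abundant epicardial marker, had 234 ± 43.5 CPM in overexpression and 212 ± 0.932 CPM in wild type. Its log2 fold change was 0.14 ± 0.14 (edgeR adjusted p = 0.629). Fn1, the most abundant activated fibroblast marker, had 799 CPM in replicate 1, 417 to 496 CPM in replicates 2 to 4 and 577 to 691 CPM in wild type. Of 12 tested activated fibroblast markers none was called by edgeR or limma-voom and 1 by DESeq2, with 3 at an unadjusted p under 0.05 in edgeR. Without replicate 1, edgeR called 1 of them lower, and the median log2 fold change of the list was 0.27, against 0.88 with it. The part of these markers in the Frzb level was not tested.

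Sfrp5, known from the epicardial and venous side of the developing heart and from fat tissue, had a lower mean in overexpression with overlapping groups. It measured 0.444, 2.599, 0.8698 and 1.28 CPM in overexpression and 1.67, 2.12 and 3.69 CPM in wild type. Overexpression replicate 2 stood above 2 of the wild-type libraries, and the other 3 overexpression libraries stood below all of them. The log2 fold change was -0.95 ± 0.54 (SE) on 38 reads in overexpression and 59 in wild type. It was -1.52 without overexpression replicate 2 and -0.55 without WT replicate 3.

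Adipocyte markers varied between libraries in a partly similar order. Their sum over 9 genes was 7.44, 187, 20.7 and 21.9 CPM in overexpression and 47.9, 34.9 and 62.6 CPM in wild type. Overexpression replicate 2 was the highest library of this sum and replicate 1 the lowest, while Sfrp5 was highest in WT replicate 3. Car3, the most abundant of them, had 97.6 CPM in overexpression replicate 2, 2.44 to 9.89 CPM in the other overexpression libraries and 15.4 to 28.6 CPM in wild type. No adipocyte marker was at 0 in every library. Epicardial markers had their highest sum in overexpression replicate 1 (1216 CPM), where Sfrp5 was lowest. The part of either list in the Sfrp5 level was not tested.

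**Figure D3:**
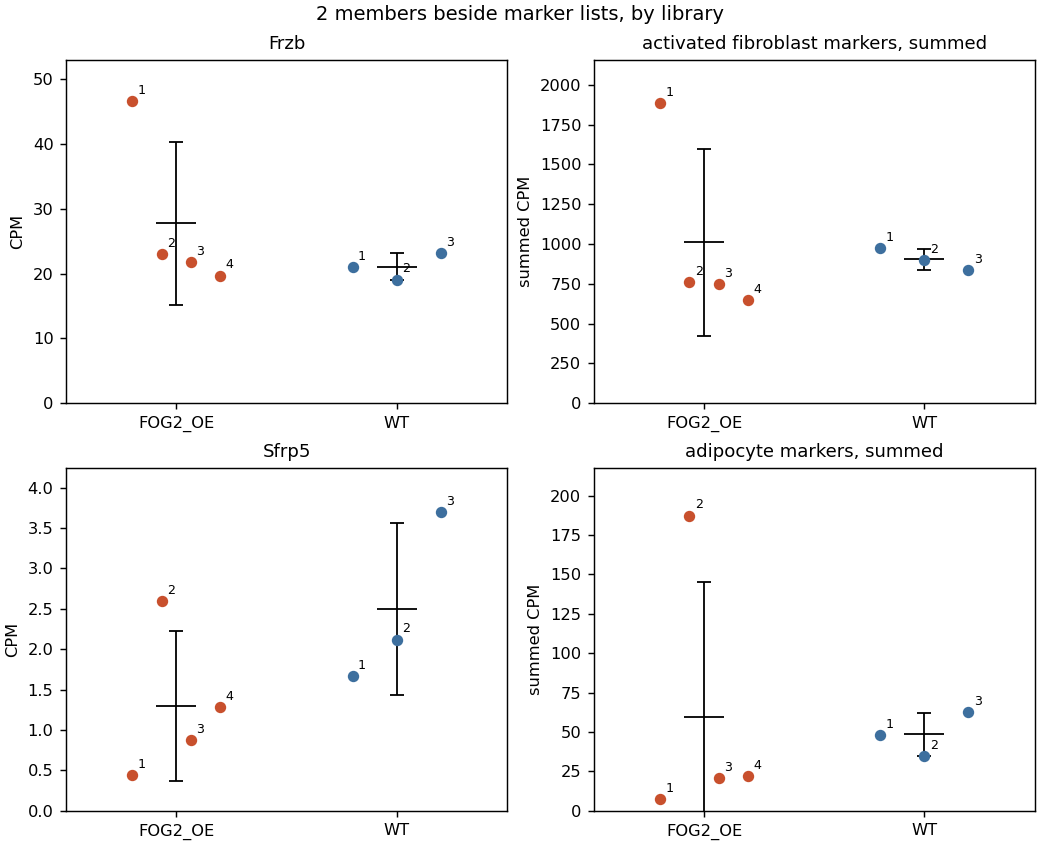
CPM of Frzb and Sfrp5 (left) beside the summed CPM of 13 activated fibroblast markers and of 9 adipocyte markers (right), by library, with replicate numbers; the black bars give the mean and the SD, cut at 0 where the SD passes it. Overexpression replicate 1 is highest for Frzb (46.5 CPM) and for the activated fibroblast sum (1887 CPM), and replicate 2 is the highest overexpression library for Sfrp5 and for the adipocyte sum.

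Wif1 and Dkk2 were near the limit of detection. Wif1 had 0, 7, 1 and 3 reads in the overexpression libraries and 0, 0 and 2 reads in the wild-type libraries, and replicate 2 held most of them. The ratio of overexpression to wild type was 4.29, with a 95% interval of 0.935 to 39.8 that covers counting error only. Without overexpression replicate 2 it was 2.02 (0.29 to 22.3), on 4 reads in overexpression and 2 in wild type. Without WT replicate 1 it was 2.76. It was higher, at 6.10 (1.33 to 56.6), without overexpression replicate 1, and 4.81 (1.02 to 45.1) without overexpression replicate 3. Dkk2 had 1 read over the overexpression libraries and 2 over the wild-type libraries, at or under the 3 reads taken as the floor, so no fold is given. At this depth 3 reads over the group stand for 0.0991 CPM in overexpression and 0.127 CPM in wild type.

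The promoters of members were read for the GATA and T-box letters because the title of the series names GATA4 and TBX5. RefSeq windows of 300 bases, from 250 before to 50 after the start of the gene in GRCm38.p6, matched 5 of the 8 members (Frzb, Sfrp2, Dkk2, Wif1 and Sfrp5). The GATA letters searched were AGATAA or AGATAG and TGATAA or TGATAG. The T-box letters were AGGTGT. Both strands were read, and no match in these windows overlapped another. Frzb and Sfrp5 held GATA letters. The RefSeq start of Sfrp5 is also its GENCODE start, and its window is shown because 2 matches lie in front of that start, in capitals, 5′ to 3′ on the minus strand at chr19:42202203-42202502.
Sfrp5: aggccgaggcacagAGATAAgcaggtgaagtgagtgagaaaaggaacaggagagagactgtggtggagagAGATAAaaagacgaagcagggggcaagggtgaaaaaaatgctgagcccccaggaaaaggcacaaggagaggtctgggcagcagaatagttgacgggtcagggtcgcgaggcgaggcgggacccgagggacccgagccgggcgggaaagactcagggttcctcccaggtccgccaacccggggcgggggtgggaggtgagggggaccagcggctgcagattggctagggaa
The matches are AGATAA at -236 and at -180 from the start site. The RefSeq start of Frzb lies 229 bases inside the GENCODE gene, and 279 of the 300 bases of its window fall within that gene. Its AGGTGT at -177 and AGATAG at -132 from the RefSeq start are therefore inside the GENCODE gene and not in front of it, and the window is not shown. The GATA letters occurred in 29.8% of all 32851 promoter windows of that length and the T-box letters in 13.7%. A match describes the letters of the window and is not a bound site.

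Among all tested genes, Ptgfr, the prostaglandin F receptor, had the profile most like that of Dkk3. Likeness was the root mean square difference of log2 CPM over the 7 libraries, each gene centred on its own mean, and it was 0.0399 for Ptgfr. Ptgfr measured 23.4, 32.6, 24.2 and 26.2 CPM in overexpression and 428, 417 and 471 CPM in wild type, so replicate 2 was the highest overexpression library and replicate 3 the highest wild-type library for both genes. The next genes were farther off, at 0.420 for Pirt, a membrane protein of sensory neurons that acts on Trp channels, 0.423 for Cdcp1, 0.424 for Bmp3, a ligand of the BMP family, and 0.456 for Lrrc2. Cdcp1 held 0, 1, 0 and 0 reads in the overexpression libraries and Bmp3 held 4, 5, 2 and 2. At such counts the log2 CPM depends on the prior count of 2, and so does their likeness. The fitted log2 fold change of Cdcp1 was -7.32 ± 0.56, against -4.02 for Dkk3. The likeness was taken over the libraries that hold the difference between the groups, so the genes share that difference by construction.

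**Figure D4:**
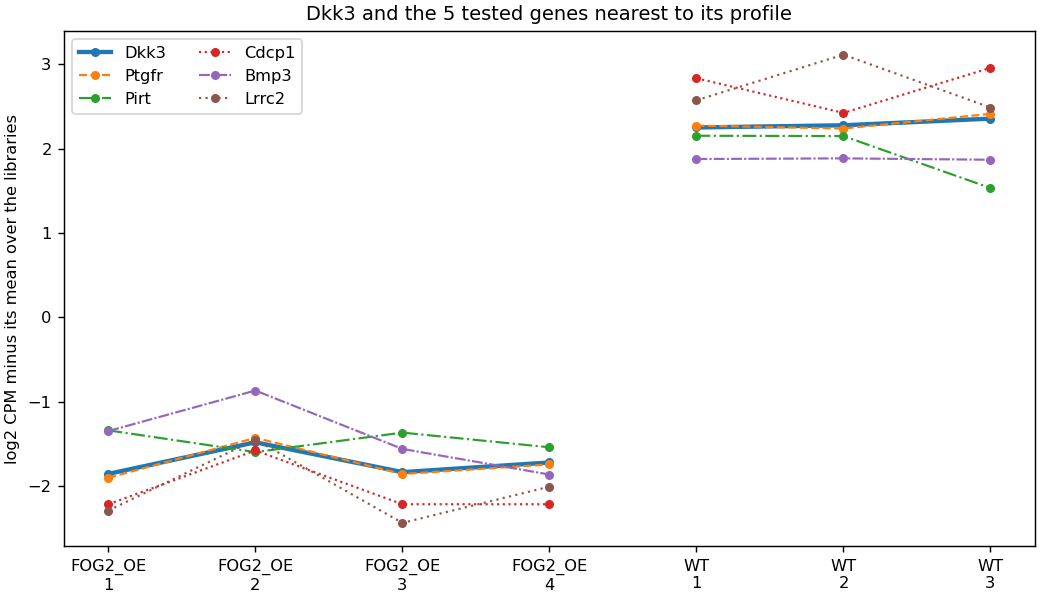
log2 CPM of Dkk3 and of the 5 tested genes nearest to it, each minus its own mean over the 7 libraries, with FOG2_OE libraries on the left and WT libraries on the right; lines join the libraries of a group only to mark the gene. The Ptgfr points lie on those of Dkk3 (root mean square difference 0.0399), while the other 4 genes differ by 0.420 to 0.456. Cdcp1 (0, 1, 0 and 0 reads) and Bmp3 (4, 5, 2 and 2 reads) held few reads in FOG2_OE, where the prior count of 2 weighs on their points.

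For Sfrp5, the member with the next largest absolute log2 fold change, the nearest genes were less close. They were Fam228b (0.3303), Pdk4, the kinase that inhibits pyruvate dehydrogenase (0.337), Tgfbr3l (0.3402), Lipe, the hormone-sensitive lipase (0.344), and Camkmt (0.384). Pdk4 measured 164, 698, 276 and 557 CPM in overexpression and 294, 575 and 870.3 CPM in wild type, and Lipe 12.8, 36.4, 25.9 and 25.02 CPM in overexpression and 24.4, 36.6 and 42.5 CPM in wild type. As for Sfrp5, replicate 1 was the lowest overexpression library of both, replicate 2 the highest, and WT replicate 3 the highest of all. These genes were picked by their likeness over the same libraries, so the shared order follows from the choice. The Sfrp5 profile rests on 4 to 30 reads per library.

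Outside the 8 members, few Wnt pathway genes were called with TMM scaling, as among all tested genes. Of 124 genes of the pathway in the table outside the 8 members, 92 passed the filter, of which 3 rose, 2 fell and 87 did not pass the test (edgeR, adjusted p under 0.05 over all genes). The shares, 3.26% higher and 2.17% lower, stand beside 1.55% and 3.29% of all tested genes, and the median log2 fold change was 0.04 against 0.02. With libraries scaled to the sarcomere genes, which called 3507 of all genes higher, 31 of the 92 were higher and 1 lower.

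Among ligands and the proteins that modify and release them, no gene of 11 tested was called (edgeR), where 2 had an unadjusted p under 0.05, limma-voom called 0 and DESeq2 called 1. Wls, the carrier that brings Wnt ligands to the cell surface, had 330.4 ± 61.2 CPM in overexpression and 227 ± 46.96 CPM in wild type (0.54 ± 0.18, adjusted p = 0.134, or 0.0474 with DESeq2). Wls was also called with sarcomere scaling (0.99, edgeR adjusted p = 0.00653), where the median of all genes was 0.48. Wnt5a, a ligand of beta-catenin-independent signalling, had 29.5 ± 5.6995 CPM in overexpression and 33.4 ± 9.46 CPM in wild type (-0.19 ± 0.22, adjusted p = 0.694). The ligand genes Wnt1, Wnt3, Wnt3a, Wnt7a, Wnt8a, Wnt8b and Wnt10a had no read in any library.

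Of 24 tested receptor genes, 1 rose, 1 fell and 22 were not called. Lgr6, a receptor of R-spondins, fell to 1.44, 2.89, 2.26 and 2.91 CPM in overexpression, against 22.2, 34.5 and 11.9 CPM in wild type (-3.26 ± 0.38, adjusted p = 0.00224). Fzd9, a Frizzled receptor, rose to 4.22, 8.09, 9.92 and 12.6 CPM in overexpression, against 0.596, 0.989 and 0.616 CPM in wild type (3.55 ± 0.45, adjusted p = 0.002501). The groups of both genes lay well apart. Replicate 1, the lowest overexpression library for Zfpm2, was also the lowest for Fzd9 and for Lgr6. It thus held the smallest rise of Fzd9 and the largest fall of Lgr6. A relation of either gene to the Zfpm2 level was not tested.

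The receptors that Dickkopf proteins bind did not pass the test. Lrp6 had 185, 190.3, 186 and 180.4 CPM in overexpression and 207, 251 and 210.4 CPM in wild type, with groups that did not overlap (-0.26 ± 0.10, adjusted p = 0.184). With libraries scaled to the sarcomere genes its log2 fold change was 0.20. Kremen1, a receptor that takes up Lrp6 with Dickkopf proteins, had 84.9 ± 16.8 CPM in overexpression and 85.4 ± 13.7 CPM in wild type (-0.01 ± 0.17, adjusted p = 0.985). Lrp4, picked because it changed its call, had a log2 fold change of 0.57 ± 0.20 (adjusted p = 0.151), and 0.71 ± 0.13 (adjusted p = 0.00707) without overexpression replicate 1. It was also called with sarcomere scaling (edgeR adjusted p = 0.00319) and in libraries without Y-linked transcripts (0.71 ± 0.15, edgeR adjusted p = 0.0258).

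**Figure D5:**
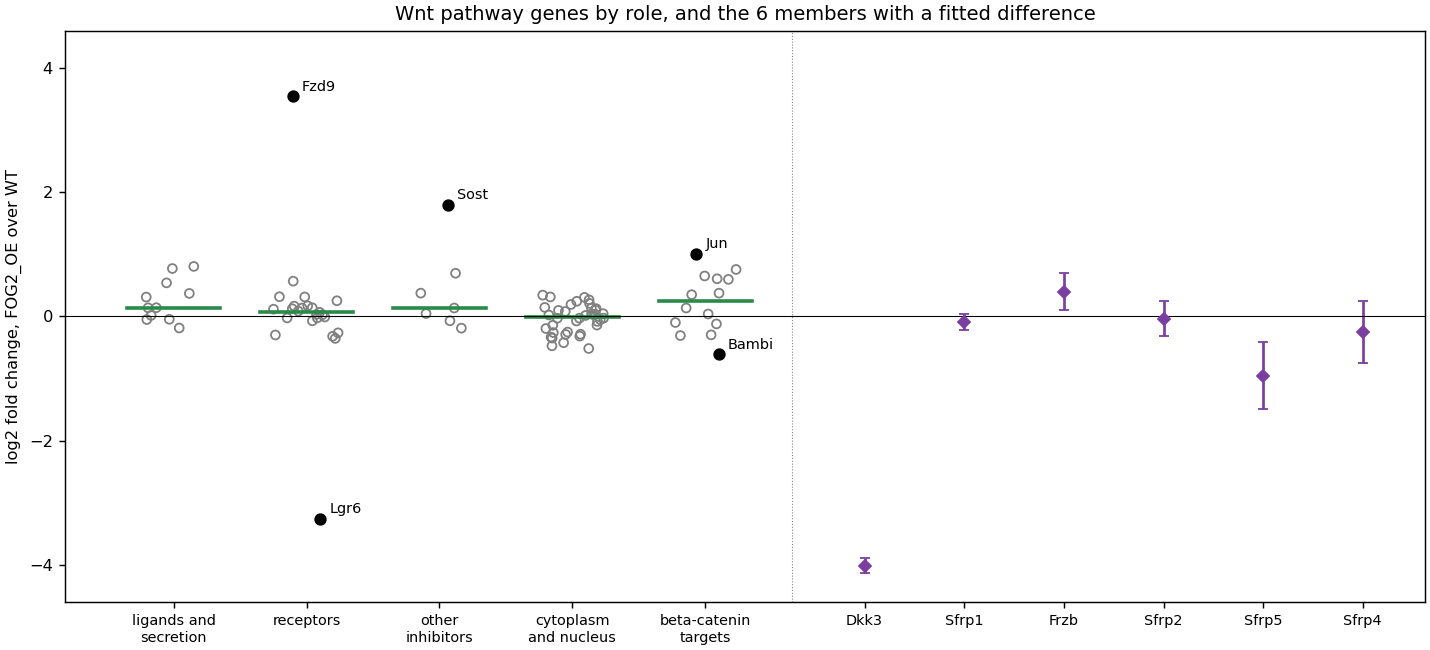
log2 fold change of FOG2_OE over WT for the tested Wnt pathway genes by role (left; filled and named points passed an adjusted p of 0.05, open points did not, green bars are medians) and for the 6 members with their SE (diamonds, right; these are a description, with no p-value). The called genes are Fzd9, Sost and Jun above 0 and Lgr6 and Bambi below, and Dkk3 lies at -4.02.

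Another secreted inhibitor, Sost, rose. Its product sclerostin binds Lrp5 and Lrp6 and is best known from bone. Sost measured 18.5, 15.02, 10.3 and 9.54 CPM in overexpression and 3.22, 4.24 and 4.06 CPM in wild type (1.80 ± 0.28, adjusted p = 0.00661), and the lowest overexpression library was above the highest wild-type library. Of 7 tested genes on this list of other inhibitors, 1 rose and 6 did not pass the test. Igfbp4, which binds insulin-like growth factors and can block Wnt receptors, had 293 ± 40.5 CPM in overexpression and 284 ± 9.53 CPM in wild type (0.05 ± 0.12, adjusted p = 0.866), and Trabd2b, a protease that cuts Wnt ligands, 22.1 ± 9.18 CPM in overexpression and 25.2 ± 9.197 CPM in wild type (-0.19 ± 0.36, adjusted p = 0.819). With sarcomere scaling, where the median of all genes was 0.48, Igfbp4 was called (0.51, edgeR adjusted p = 0.0497). Dkk1 and Dkk4, the other Dickkopf genes of the table, and the related Dkkl1 had no read in any library.

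Inside the cell, no gene of 38 tested was called by edgeR with TMM scaling, limma-voom or DESeq2, with 4, 5 and 2 at an unadjusted p under 0.05. With libraries scaled to the sarcomere genes, edgeR called 13 of the 38 higher, where it called 3507 of all 13295 genes higher. Ctnnb1, beta-catenin, had 805 ± 53.8 CPM in overexpression and 752 ± 26.4 CPM in wild type (0.10 ± 0.10, adjusted p = 0.648). Csnk1a1, a kinase of the beta-catenin destruction complex, had 255 ± 19.7 CPM in overexpression and 237 ± 17.2 CPM in wild type (0.10 ± 0.10, adjusted p = 0.624). With sarcomere scaling Ctnnb1 (0.55, edgeR adjusted p = 0.0352) and Csnk1a1 (0.55, edgeR adjusted p = 0.0253) were called, beside a median of all genes of 0.48.

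Of 14 tested genes known as beta-catenin targets, 1 rose, 1 fell and 12 were not called, and the median log2 fold change was 0.24. Jun, a stress-responsive AP-1 factor, rose to 89.1, 52.3, 63.2 and 87.9 CPM in overexpression, against 37.2, 33.8 and 38.1 CPM in wild type (1.01 ± 0.19, adjusted p = 0.0198). Bambi, a decoy receptor for TGF-beta and BMP ligands, fell to 27.1, 22.7, 18.4 and 21.6 CPM in overexpression, against 35.8, 33.2 and 34.1 CPM in wild type (-0.61 ± 0.14, adjusted p = 0.0372). The groups did not overlap for these genes, but both calls are near the threshold. The adjusted p of Jun was 0.0848, 0.1077 and 0.0650 without WT replicates 1, 2 and 3. That of Bambi was 0.0827, 0.0729 and 0.0907 without overexpression replicates 2, 3 and 4, 0.149, 0.121 and 0.0987 without WT replicates 1, 2 and 3, and 0.0973 with the replicate number as a block. Bambi also lost its call with library totals only (0.0864) and with sarcomere scaling (0.576), and Jun in libraries without Y-linked transcripts (0.0638).

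Cd44 and Ccnd1, the most abundant targets that did not pass, were highest in overexpression replicate 1. Cd44, an adhesion receptor, measured 105, 54.2, 52.4 and 76.9 CPM in overexpression and 47.1, 46.5 and 48.8 CPM in wild type, with groups that did not overlap (0.61 ± 0.23, adjusted p = 0.202). Ccnd1, cyclin D1, measured 121, 26.4, 33.4 and 16.99 CPM in overexpression and 41.7, 29.8 and 27.2 CPM in wild type (0.60 ± 0.66, adjusted p = 0.6696), and its log2 fold change was -0.38 without replicate 1. That of Cd44 was 0.37 ± 0.14 without replicate 1 (adjusted p = 0.157), and Cd44 was called with sarcomere scaling (1.06, adjusted p = 0.0132).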

How the data were processed

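Whole-number counts per gene were deposited by the authors for 7 left atrial libraries. The submitters' processing notes name the tools STAR, DESeq2 and HTSeq (0.6.0) and the build mm10, without roles. How strand was counted is not given in the sources used here. Per the labels, libraries are polyA, but the extraction protocol mentions ribosomal RNA removal. Rows naming no gene (66.9% to 72.2% of reads per library) were left out. Genes were filtered with filterByExpr (minimum count 10, total 15), scaled by TMM, and tested two-sided with the quasi-likelihood F test of edgeR 4.0.16 in R 4.3.3, with Benjamini-Hochberg adjustment over 13295 genes. Fits were tested on simulated data. CPM uses TMM-scaled totals, and likeness uses log2 CPM with a prior count of 2. Exon lengths and positions came from GENCODE M21, which matched 95.7% of symbols. One count stood for 0.116 to 0.1798 CPM. Same-numbered replicates shared only a number. Intervals cover counting error only.

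Members and gene lists were chosen with earlier results of these data known. Named genes were the members, Zfpm2, up to 4 called and 2 abundant uncalled genes per Wnt list, the 5 genes nearest to Dkk3 and to Sfrp5, and the most abundant marker of a cell type list given beside a result. Alternatives were other scalings, filters and tools (DESeq2 1.42.0, limma-voom 3.58.1), a replicate block, and each library left out. Only libraries without Y-linked transcripts were used in a fit chosen after seeing the data.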

Additional observations from a re-analysis of the deposited data

Results flagged for a closer look

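In 21 genes named from the family and the Wnt lists, the 4 overexpression libraries were checked for a value far from the others (a gap above 0.829 of the whole range), and 2 genes had one, both in overexpression replicate 1. Chance flags about 1 in 20 such groups. Frzb stood at 46.5 CPM there, against 19.7 to 22.96 CPM in the other overexpression libraries. Ccnd1 stood at 121 CPM there, against 16.99 to 33.4 CPM in the others.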

How the results depend on the processing

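Dkk3 kept a negative log2 fold change under 18 alternatives, from -4.10 to -3.97 with a library left out and -3.55 when scaled to the sarcomere genes. Over all genes, 206 were higher and 438 lower. The counts were 444 and 294 with library totals only (60.2% of calls higher against 32.0%, median log2 fold change 0.15), 3507 and 182 with sarcomere scaling (95.1% higher), 460 and 681 with DESeq2, and 129 and 253 with the replicate block. Leaving out a library gave 75 to 493 higher and 181 to 658 lower: 493 and 658 (overexpression replicate 1 left out), 149 and 283 (replicate 2), 139 and 291 (replicate 3), 125 and 304 (replicate 4), 78 and 205 (WT replicate 1), 75 and 181 (WT replicate 2) and 133 and 263 (WT replicate 3). Libraries without Y-linked transcripts gave 293 and 411. The cause was not tested. The Wnt pathway counts of 3 higher and 2 lower became 4 and 1 with library totals only, 31 and 1 with sarcomere scaling, 3 and 1 with the replicate block, and 2 to 4 and 1 to 2 with a library left out; the call lost in the block was that of Bambi.

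Uncalled members moved with scaling. With sarcomere scaling, Sfrp1, Sfrp2 and Sfrp4 had log2 fold changes of 0.38, 0.41 and 0.21, Frzb 0.87 and Sfrp5 -0.48, beside a median of all genes of 0.48. With library totals only, Sfrp1 stood at 0.04 and Sfrp2 at 0.08. In libraries without Y-linked transcripts, Frzb stood at -0.04, Sfrp5 at -0.74 and Dkk3 at -3.98. The replicate block changed no other call of a Wnt pathway gene named here; same-numbered deviations correlated at 0.0789, 0.0136 and 0.07197. Depth limits Dkk2, Wif1, Sfrp4 and Sfrp5.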
